A study of Mus musculus with 12 samples.

Results

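Transcript levels of 9 cell adhesion genes were followed in bone marrow carrying mouse T-lineage acute lymphoblastic leukemia (T-ALL), a malignancy of T-cell precursors. They were 4 integrin alpha chains (Itga4, Itga6, Itgal and Itgae), 2 integrin beta chains (Itgb1 and Itgb7), the integrin ligand Icam1, the selectin ligand Selplg and the hyaluronan receptor Cd44. These genes were chosen by name as the adhesion receptors of T cells, and each of the 9 matched 1 of 38339 gene rows. Each of 6 primary leukemias had been passed to recipient mice, of which 1 received dexamethasone (DEX, a synthetic glucocorticoid) and 1 received vehicle (VEH). Marrow was collected 4 hours after treatment, which gave 6 DEX and 6 VEH libraries in 6 pairs. The pairs are numbered here by their codes, with 73A-46B as leukemia 1, 73M-19A as leukemia 2 and 78A-143B as leukemia 3. Leukemia 4 is 2M-127B, leukemia 5 is 20M-116B and leukemia 6 is JW-81-59B. The mice of all 12 libraries were on a C57BL/6 x 129Sv/Jae F1 background, and all recipients were moribund when treated. The labels used here give no dose, age or sex of the mice and no driver mutation of the leukemias.

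Several features limit these groups as a model. Each arm of a leukemia was a single mouse, so the replicate is the leukemia (n = 6). The RNA came from whole marrow after red cell lysis, so a value mixes leukemia cells with the host cells left in the marrow. In such bulk samples fewer cells of a type and less RNA per cell cannot be told apart. The surface protein, and the pairing of chains at the surface, were not measured.

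Integrins are receptors made of 1 alpha and 1 beta chain, and the pair decides which ligand is bound. Alpha 4 with beta 1 (VLA-4) binds VCAM-1 and fibronectin, alpha 4 with beta 7 binds the gut addressin MAdCAM-1, alpha 6 with beta 1 binds laminins, alpha L with beta 2 (LFA-1) binds ICAM proteins, and alpha E with beta 7 (CD103) binds E-cadherin. Selplg encodes PSGL-1, the sugar-bearing protein on white cells that P-selectin catches as they roll along a vessel wall. CD44 binds hyaluronan, is high on the earliest thymocytes and falls as they mature. In leukemia such receptors are known for holding cells in the marrow and for carrying them into other tissues.

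The levels are FPKM, which count the fragments of a gene for its length and the size of the library, and differences are DEX minus VEH on the log2(FPKM + 1) scale with the moderated standard error. The libraries had FPKM sums of 1466471 to 2019058, with 11778 to 12970 genes at 1 FPKM or more. The file gave no counts, and an estimate from sparse genes put 11 of the libraries at 11700000 to 36100000 fragments. As a check of the treatment, Fkbp5, a gene that glucocorticoids induce, averaged 633 FPKM in DEX and 305 FPKM in VEH and was higher in 6 of 6 leukemias. All 14 T-lineage markers were measured above the filter, and they summed to 1788 to 2774 FPKM in DEX and 1921 to 2939 FPKM in VEH, lower in DEX in 6 of 6 leukemias, with 4 of the 14 called lower and 1 higher. The 13 granulocyte markers summed to 1538 to 5533 FPKM in DEX and 2350 to 9152 FPKM in VEH, and were lower in DEX in 5 of 6 leukemias, all but leukemia 3. The DEX sum was 0.365 to 1.44 times the VEH sum, 0.969 times in leukemia 4, and of the 13 markers 1 was called lower and 0 higher. Beside the counts of both marker lists, 9.28% of all tested genes were called lower and 4.27% higher.

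Over the 12 libraries the order of mean level, per length of gene, was Itgal (77.2 FPKM), Itga4 (75.5 FPKM), Selplg (60.7 FPKM), Itgb7 (53.8 FPKM), Itgb1 (52.8 FPKM), Cd44 (36.2 FPKM), Itga6 (20.8 FPKM), Icam1 (5.15 FPKM) and Itgae (5.002 FPKM). By the median library Itgb1 (52.2 FPKM) lay above Itgb7 (39.0 FPKM), and Itgae was at 0.855 FPKM. Of the 9 genes, 8 passed the filter of 1 FPKM in 6 libraries. Itgae reached 1 FPKM in 5 of 12 libraries and is given by its values with no test. With DEX, 2 of the 8 tested genes were lower at an adjusted p under 0.05 (Itgb1 and Icam1) and 0 were higher, where 9.28% of the 12358 tested genes were lower and 4.27% were higher. The median difference of the 8 was -0.06 and that of all tested genes was -0.05. In none of the 9 genes were the DEX and VEH values fully separate, as they were in 1.73% of the tested genes. Levels spread widely between leukemias, and the comparisons that follow are within leukemias.

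**Figure D1:**
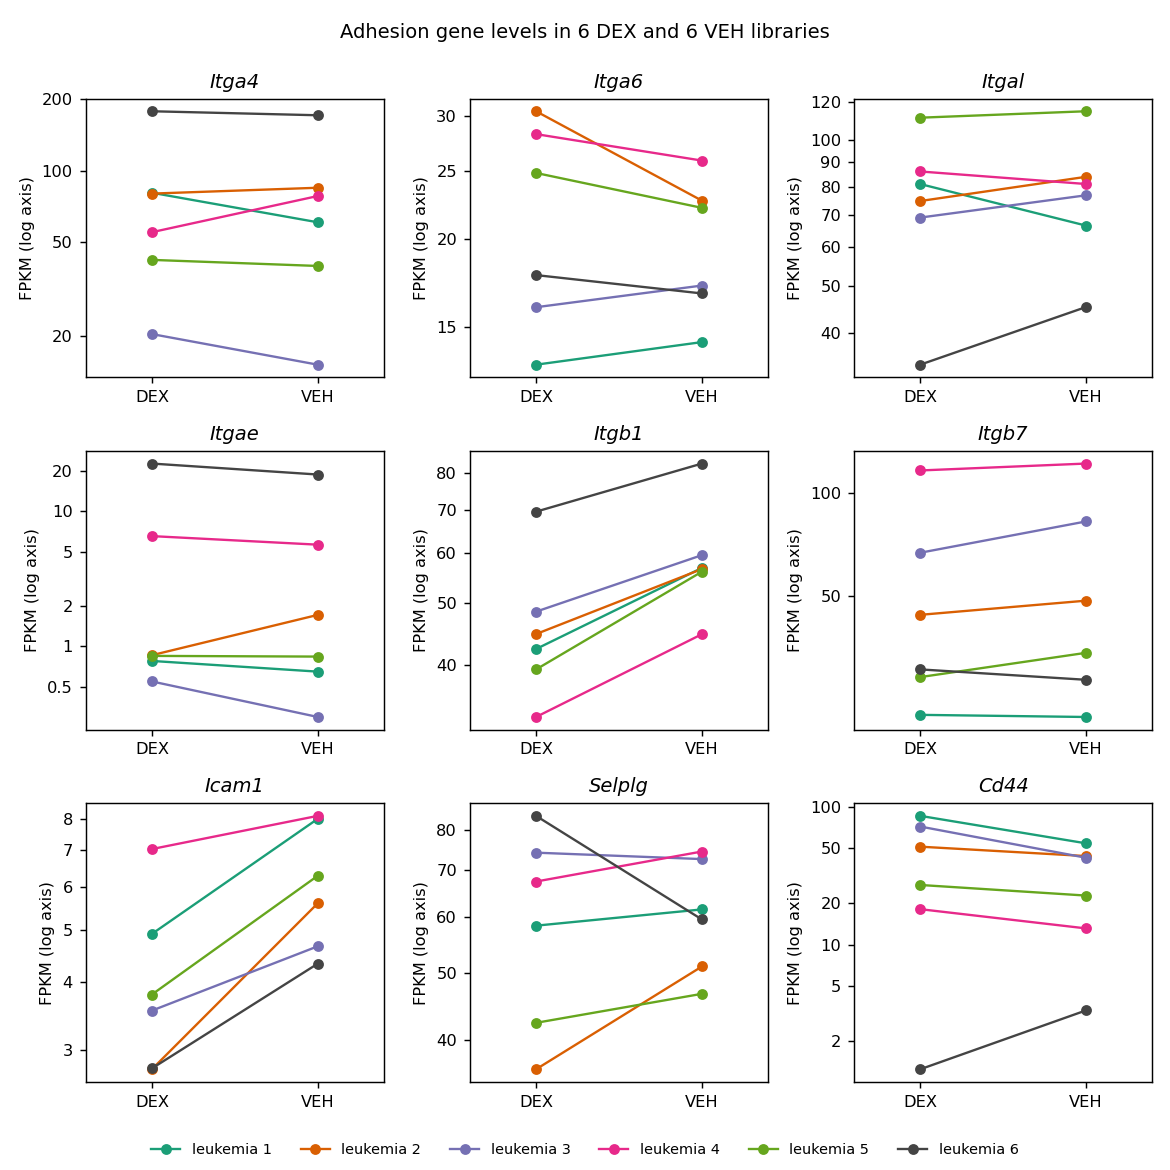
FPKM (log axis, own range for each gene) of 9 adhesion genes in the DEX and VEH library of each leukemia, with a line joining the 2 libraries of a leukemia (n = 6). The lines of Itgb1 and Icam1 are lower at DEX in 6 of 6 leukemias, and leukemia 6 lies highest for Itgb1, Itga4 and Itgae and lowest for Cd44 and Itgal.

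Of the 2 beta chains, Itgb1 fell with DEX and Itgb7 did not pass. Itgb1, which sits on chromosome 8 (128685654 to 128733200, plus strand, mm10), encodes the beta 1 chain shared by VLA-4 and the laminin receptors. It had 42.3, 44.7, 48.5, 33.1, 39.3 and 69.6 FPKM in the DEX libraries of leukemias 1 to 6, against 56.8, 56.6, 59.5, 44.7, 56.0 and 82.9 FPKM in their VEH libraries. All 6 DEX values lay below the VEH value of the same leukemia, at 0.70 to 0.84 times its level, while the lowest VEH library (leukemia 4) lay below the DEX libraries of leukemias 2, 3 and 6. Itgb1 averaged 46.2 ± 12.6 FPKM in DEX and 59.4 ± 12.6 FPKM in VEH (SD, n = 6 each), a difference of -0.37 ± 0.06 (limma, adjusted p = 0.00617). The call held in each of the 6 fits that left out 1 leukemia (adjusted p up to 0.0302) and with a granulocyte term (-0.38, adjusted p = 0.0127). Of all tested genes, 13.7% were lower in 6 of 6 leukemias.

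RefSeq promoter sequence (GRCm38.p6) was held for 5 of the 9 genes, and the 250 bases before the start are shown for the 2 that fell with DEX. The capitals in the Itgb1 sequence mark AGAACA, the letters of one side of the paired glucocorticoid receptor motif, which began 245 bases before the start on the plus strand. The capitals in the Icam1 sequence mark GGAAATTCC, a form of the NF-kappaB motif, which began 153 bases before the start. Bases are counted from the RefSeq start. For Icam1 that window ends at 21015939, short of the GENCODE gene start of 21015985 given below.
Itgb1, chr8:128685404-128685653, plus strand: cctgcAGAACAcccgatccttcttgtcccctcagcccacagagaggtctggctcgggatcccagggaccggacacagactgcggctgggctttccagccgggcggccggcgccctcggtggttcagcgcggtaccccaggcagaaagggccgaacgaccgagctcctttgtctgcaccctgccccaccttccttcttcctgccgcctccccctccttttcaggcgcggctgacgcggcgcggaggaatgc
Icam1, chr9:21015690-21015939, plus strand: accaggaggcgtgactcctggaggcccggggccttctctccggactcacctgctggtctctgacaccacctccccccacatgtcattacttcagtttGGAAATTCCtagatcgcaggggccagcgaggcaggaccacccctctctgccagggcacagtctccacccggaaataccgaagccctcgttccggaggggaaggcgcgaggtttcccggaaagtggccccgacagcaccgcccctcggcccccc
Searched on both strands, AGAACA was present in 16.1% of 32851 promoters of this length, GGAAATTCC in 0.286% and the AP-1 form TGANTCA in 6.75%. AGAACA was also found in the Itgb7 window (starting 154 bases before the start, minus strand), a gene that did not pass the test. The windows of Itga4 and Cd44 held none of the 3 searched motifs, and none of the 5 windows held TGANTCA. These matches describe the letters only, and binding was not measured.

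Itgb7, on chromosome 15 (102215995 to 102231944, minus strand), encodes the beta 7 chain of the gut-homing and epithelium-binding integrins. It had 22.4, 43.9, 66.8, 116.4, 28.9 and 30.4 FPKM in the DEX libraries of leukemias 1 to 6, against 22.0, 48.3, 82.5, 122, 34.0 and 28.3 FPKM in VEH. DEX was lower in leukemias 2 to 5 and higher in leukemias 1 and 6. The difference of -0.10 ± 0.07 did not pass the test (limma, adjusted p = 0.349), and its 95% interval ran from -0.26 to 0.05.

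Among the alpha chains, 0 of the 3 tested passed for DEX. Itga4, on chromosome 2 (79255426 to 79333123, plus strand), encodes alpha 4. It had 80.7, 80.0, 20.4, 55.0, 42.0 and 178 FPKM in the DEX libraries of leukemias 1 to 6, against 60.6, 84.7, 15.2, 78.2, 39.6 and 171 FPKM in VEH. Leukemias 1 and 3 were higher with DEX by 0.41 each, and leukemia 4 differed the other way by -0.50. The mean difference was 0.06 ± 0.11 (limma, adjusted p = 0.751, 95% interval -0.20 to 0.32), and it lost its sign without leukemia 1 (-0.0071), without leukemia 3 (-0.0067) or when values were rescaled to a fixed sum (-0.076). Exons of Itga4 overlap those of Cerkl on the other strand, and whether the counting used strand is not given in the sources used here.

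Itga6, on chromosome 2 (71745616 to 71858416, plus strand), encodes the alpha 6 chain of laminin receptors. Its DEX libraries lay between 13.3 and 30.4 FPKM (median 21.3), against 14.3 to 25.9 FPKM (median 19.7) in VEH. Leukemia 2 stood out, with 30.4 FPKM in DEX and 22.7 FPKM in VEH, while leukemias 1 and 3 were slightly lower with DEX. The difference of 0.10 ± 0.08 did not pass (limma, adjusted p = 0.456, 95% interval -0.09 to 0.28), and it was -0.036 when values were rescaled to a fixed sum.

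Itgal, on chromosome 7 (127296260 to 127335138, plus strand), encodes the alpha L chain of LFA-1. Its DEX libraries lay between 34.3 and 111 FPKM (median 78.0), against 45.2 to 115 FPKM (median 79.1) in VEH. DEX was higher in leukemias 1 and 4 and lower in the other 4. The difference was -0.06 ± 0.09 (limma, adjusted p = 0.653, 95% interval -0.26 to 0.13), and it was 0.0015 without leukemia 6 and 0.00082 with weights for library quality. Its partner chain Itgb2 averaged 83.6 ± 18.9 FPKM in DEX and 105 ± 31.2 FPKM in VEH (SD, n = 6 each) and passed at -0.31 ± 0.08 (adjusted p = 0.0356). That call was lost on leaving out leukemia 1, 2, 3, 5 or 6 (adjusted p of 0.0552 to 0.111) and with a granulocyte term, where the difference was -0.33 (adjusted p = 0.0587).

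Itgae, on chromosome 11 (73090583 to 73147446, plus strand), encodes the alpha E chain of CD103, which marks T cells that reside in epithelium. It had 0.78, 0.86, 0.55, 6.55, 0.85 and 22.6 FPKM in the DEX libraries of leukemias 1 to 6, against 0.65, 1.71, 0.30, 5.66, 0.84 and 18.7 FPKM in VEH. Leukemias 4 and 6 were high in both arms and the other 4 stayed below 2 FPKM. By the estimate of depth, the values of leukemia 3 stood for about 58 fragments in DEX and 40 in VEH.

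Icam1, on chromosome 9 (21015985 to 21028817, plus strand), encodes ICAM-1, the main ligand of LFA-1 and a gene that NF-kappaB is known to induce. It had 4.91, 2.77, 3.55, 7.03, 3.8 and 2.78 FPKM in the DEX libraries of leukemias 1 to 6, against 7.99, 5.59, 4.66, 8.09, 6.28 and 4.33 FPKM in VEH. All 6 DEX values lay below their VEH partner, at 0.50 times its level in leukemia 2 and 0.87 times in leukemia 4. Icam1 averaged 4.14 ± 1.62 FPKM in DEX and 6.16 ± 1.61 FPKM in VEH (SD, n = 6 each), a difference of -0.50 ± 0.10 (limma, adjusted p = 0.0145).

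The Icam1 call depended on single leukemias. Leaving out leukemia 1 gave -0.48 (adjusted p = 0.0519) and leaving out leukemia 5 gave -0.48 (adjusted p = 0.0566), and testing all genes above 0 gave an adjusted p of 0.0620. Granulocyte markers summed to 0.605, 0.365, 1.44, 0.969, 0.701 and 0.399 times the VEH sum in the DEX libraries of leukemias 1 to 6, and with a granulocyte term the Icam1 difference was -0.42 (adjusted p = 0.0329). The 7 endothelial markers, from another cell type that makes ICAM-1, were each below 1 FPKM and summed to 0.49 to 2.5 FPKM in DEX and 0.56 to 1.67 FPKM in VEH. The monocyte and macrophage markers summed to 35.0 to 139.7 FPKM in DEX and 45.6 to 159.7 FPKM in VEH, with DEX sums of 0.875, 0.681, 1.86, 1.61, 0.805 and 0.768 times the VEH sum in leukemias 1 to 6. B-lineage markers summed to 1.14 to 10.1 FPKM in DEX and 1.57 to 62.2 FPKM in VEH and were lower in DEX in 5 of 6 leukemias, at 0.163 times the VEH sum in leukemia 2. The natural killer marker sum was also lower in DEX in 5 of 6 (0.618 to 1.13 times the VEH sum). It was mostly Gzma, at 102 to 383 FPKM in DEX and 124 to 627 FPKM in VEH. Klrd1 reached 2.64 FPKM in DEX and 0.51 FPKM in VEH, and Ncr1 at most 0.23 FPKM. The stromal marker sum, at 1.95 to 12.1 FPKM in DEX and 1.56 to 11.99 FPKM in VEH, was lower in 0 of 6. Col1a2 alone reached 9.59 FPKM in DEX and 8.89 FPKM in VEH. Tested were 8 of 10 monocyte and macrophage, 1 of 9 B-lineage, 2 of 6 natural killer and 1 of 7 stromal markers. Of these 0 were called, against 13.6% of all tested genes, which says little with so few tested. Erythroid markers summed to 14.2 to 149 FPKM in DEX and 8.66 to 1160 FPKM in VEH. Their DEX sums were 0.273, 0.128, 1.16, 0.742, 1.64 and 1.51 times the VEH sum in leukemias 1 to 6, with 0 of 5 tested called. The part of these cell types in the Icam1 difference was not tested. Exons of Icam1 overlap an antisense gene model (Gm47079), so without strand in the counting the reads of both cannot be told apart.

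Selplg, on chromosome 5 (113818536 to 113832644, minus strand), encodes PSGL-1. It had 58.3, 36.4, 74.1, 67.4, 42.4 and 83.7 FPKM in the DEX libraries of leukemias 1 to 6, against 61.5, 51.0, 72.6, 74.4, 46.6 and 59.5 FPKM in VEH. Leukemia 2 was lower with DEX by a difference of -0.48, and leukemia 6 was higher by 0.48. The mean difference of -0.05 ± 0.11 did not pass (limma, adjusted p = 0.780, 95% interval -0.30 to 0.19), and it was 0.033 without leukemia 2.

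Cd44, on chromosome 2 (102811141 to 102901665, minus strand), had 85.7, 51.3, 71.7, 18.1, 27.1 and 1.25 FPKM in the DEX libraries of leukemias 1 to 6, against 54.2, 43.8, 42.6, 13.1, 22.7 and 3.34 FPKM in VEH. DEX was higher in leukemias 1 to 5, at 1.17 to 1.68 times the VEH level, and lower in leukemia 6, at 0.374 times. The mean over all 6 was 42.5 ± 32.7 FPKM in DEX and 29.96 ± 19.9 FPKM in VEH (SD, n = 6 each), and the difference of 0.22 ± 0.19 did not pass (limma, adjusted p = 0.468, 95% interval -0.21 to 0.66). Without leukemia 6 the difference was 0.46 (adjusted p = 0.0186), so the call turned on that 1 leukemia. Its libraries held about 134 Cd44 fragments in DEX and 431 in VEH by the estimate of depth, and its granulocyte sum was 0.399 times as high in DEX. With a granulocyte term and all 6 leukemias the Cd44 difference was 0.45 (adjusted p = 0.135).

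**Figure D2:**
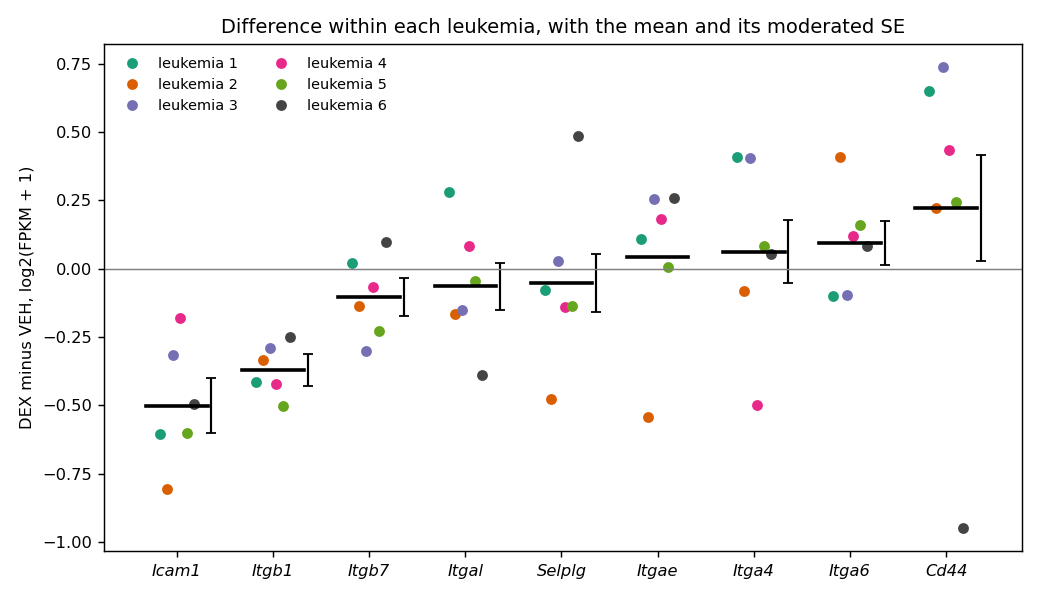
DEX minus VEH difference on the log2(FPKM + 1) scale for each leukemia (points), with the mean of 6 leukemias (bar) and its moderated SE (whisker, absent for Itgae, which was not tested). All 6 points of Icam1 and Itgb1 lie below 0, and leukemia 6 lies at -0.95 for Cd44 while the other leukemias lie between 0.22 and 0.74.

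For each of the 9 genes the ratio between the highest and the lowest leukemia exceeded the largest ratio between the 2 libraries of any 1 leukemia. All 8 tested genes differed between leukemias in the F test of the same limma fit, as did 51.1% of all tested genes. The adjusted p was 7.08e-06 for Itgb7, 4.91e-05 for Itga4, 8.35e-05 for Cd44, 0.000969 for Itgal, 0.00129 for Itgb1, 0.00263 for Itga6, 0.0112 for Icam1 and 0.0198 for Selplg. The calls of Selplg and Icam1 were the least firm, with an adjusted p of 0.0585 for Selplg without leukemia 5 and 0.0538 for Icam1 without leukemia 4. Of all tested genes, 99.2% had a smaller range between leukemias than Cd44, 97.6% a smaller one than Itga4, 94.5% a smaller one than Itgb7 and 85.5% a smaller one than Itgal. Several of these ranges depended on leukemia 6, without which the range was 2.08 log2 for Cd44 (4.47 with it), 0.63 for Itgal (1.499), 0.47 for Itgb1 (0.96) and 2.16 for Itga4 (3.24), and that of Itga4 was 2.07 without leukemia 3. The F test still passed for these 4 genes without leukemia 6 (adjusted p up to 0.0365). With all 6 leukemias, the ranges of Itgb1, Itga6, Icam1 and Selplg were nearer the middle, above those of 68.5%, 66.4%, 66.6% and 54.1% of the tested genes.

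Leukemias were ordered by the mean of their 2 libraries, and neighbours in that order were compared by whether these libraries overlapped. For Cd44 the order of means was leukemia 1 (70.0 FPKM), 3 (57.2 FPKM), 2 (47.5 FPKM), 5 (24.9 FPKM), 4 (15.6 FPKM) and 6 (2.30 FPKM), and the values of leukemias 1, 3 and 2 overlapped while each later step did not. For Itga4 it was leukemia 6 (175 FPKM), 2 (82.4 FPKM), 1 (70.6 FPKM), 4 (66.6 FPKM), 5 (40.8 FPKM) and 3 (17.8 FPKM), and leukemias 2, 1 and 4 overlapped. Leukemia 6 was thus at the top for alpha 4 and at the bottom for CD44.

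For Itgb7 the order was leukemia 4 (119 FPKM), 3 (74.6 FPKM), 2 (46.1 FPKM), 5 (31.4 FPKM), 6 (29.4 FPKM) and 1 (22.2 FPKM), and only leukemias 5 and 6 overlapped among neighbours. For Itgae it was leukemia 6 (20.6 FPKM), 4 (6.11 FPKM), 2 (1.29 FPKM), 5 (0.845 FPKM), 1 (0.715 FPKM) and 3 (0.425 FPKM), with no overlap between neighbours, although the last 4 are low values. Leukemia 4 therefore ranked first for Itgb7 and second for its partner chain Itgae, while leukemia 3 ranked second for Itgb7 and last for Itgae.

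For the other genes the middle leukemias ran together. Itgal was highest in leukemia 5 (113 FPKM) and lowest in leukemia 6 (39.7 FPKM), both apart from the other 4, which overlapped with their neighbours. Itgb1 was highest in leukemia 6 (76.3 FPKM), apart from the other 5, which overlapped down to leukemia 4 (38.9 FPKM). Itga6 formed 3 runs, leukemias 4, 2 and 5 (27.1, 26.6 and 23.5 FPKM), then 6 and 3 (17.3 and 16.6 FPKM), then 1 (13.8 FPKM). Selplg averaged 73.4, 71.6 and 70.9 FPKM in leukemias 3, 6 and 4, 59.9 FPKM in leukemia 1, and 44.5 and 43.7 FPKM in leukemias 5 and 2. Its order differed between arms, with leukemia 6 highest in DEX (83.7 FPKM) but below leukemia 1 in VEH (59.5 and 61.5 FPKM). Icam1 was highest in leukemia 4 (7.56 FPKM) and lowest in leukemia 6 (3.56 FPKM), and all neighbours overlapped.

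**Figure D3:**
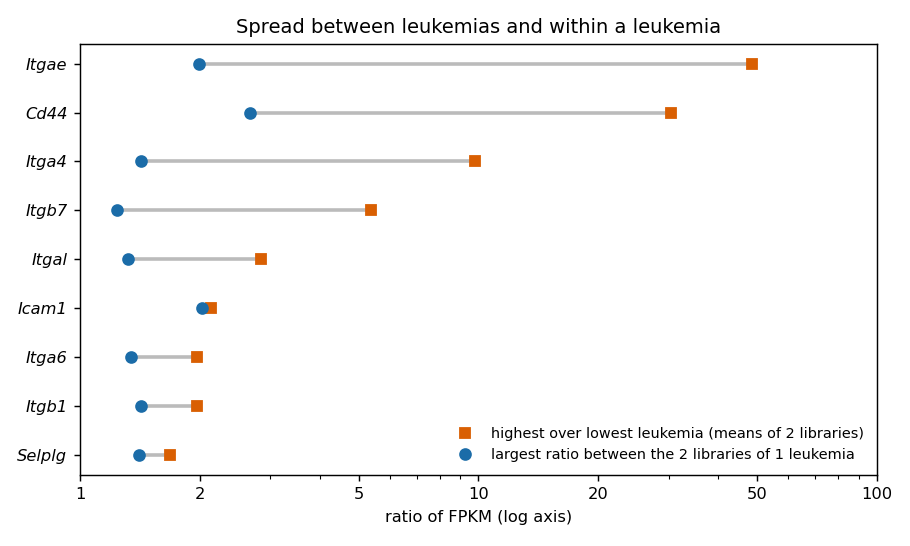
Ratio of FPKM (log axis) between the highest and the lowest leukemia, each the mean of 2 libraries (squares), and the largest ratio between the 2 libraries of any 1 leukemia (circles), for 9 adhesion genes. The squares reach 48.6 for Itgae and 30.5 for Cd44, against circles of 1.99 and 2.67, while the 2 marks of Icam1 (2.13 and 2.02) nearly meet.

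Because alpha and beta chains pair one to one, the level ratio of partner chains was compared within each leukemia. The Itga6 to Itgb1 ratio was 0.255 to 0.854 in DEX, against 0.202 to 0.580 in VEH, and it was higher in DEX in 6 of 6 leukemias, by 0.47 ± 0.23 log2 (SD, n = 6; exact sign-flip test, two-sided, p = 0.03125, adjusted over 5 ratios 0.0781). The Itgal to Itgb2 ratio was 0.680 to 1.05 in DEX, against 0.540 to 0.930 in VEH, and it was also higher in 6 of 6, by 0.25 ± 0.24 log2 (exact p = 0.03125, adjusted 0.0781). A p of 0.03125 is the smallest that the 64 sign flips allow, so at least 4 of the 5 ratios would have had to reach it for any to pass after adjustment, and 0 of 5 passed. In leukemias 2, 4 and 6 the Itgal to Itgb2 difference was 0.02, 0.08 and 0.0044, so the 6 of 6 count includes near-equal pairs.

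The Itga4 to Itgb1 ratio of the VLA-4 chains was 0.422 to 2.56 in DEX, against 0.255 to 2.07 in VEH, and was higher in 5 of 6, all but leukemia 4 (mean 0.44 ± 0.34 log2, exact p = 0.0625, adjusted 0.104). The Itga4 to Itgb7 ratio was higher in 4 of 6 (0.17 ± 0.41 log2, exact p = 0.406, adjusted 0.5) and the Itgae to Itgb7 ratio in 5 of 6 (0.21 ± 0.65 log2, exact p = 0.5, adjusted 0.5). Across leukemias the Itga4 to Itgb7 ratio lay between 0.306 (leukemia 3) and 5.86 (leukemia 6) in DEX and between 0.184 and 6.05 for the same leukemias in VEH. Leukemia 3 thus held more beta 7 than alpha 4 transcript per length in both arms, as did leukemia 4, and leukemias 1, 2, 5 and 6 held more alpha 4. The ratios with Itgb1 share that chain, so they are not independent of its own lower level.

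**Figure D4:**
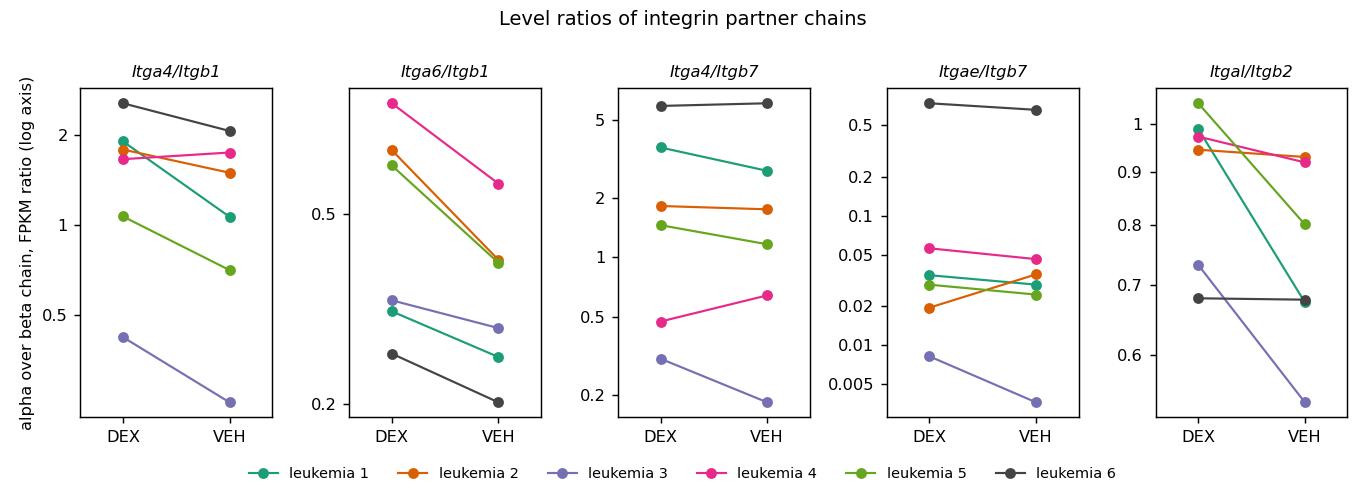
Ratio of alpha chain to beta chain FPKM (log axis, own range for each pair) in the DEX and VEH library of each of 6 leukemias, joined by lines. The ratios Itga6/Itgb1 and Itgal/Itgb2 are higher at DEX in 6 of 6 leukemias and Itga4/Itgb1 in 5 of 6, and 0 of 5 ratios passed after adjustment.

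Around these receptors, 8 lists held 160 other genes of adhesion, of which 107 were tested, 20 were lower with DEX, 8 were higher and 79 did not pass. That is 26.2% of the 107 called, against 13.6% of all tested genes, with a median difference of -0.07 against -0.05. The lists were chosen with earlier results of these data known. Neither this larger share nor that of any 1 list can therefore be read as a result about adhesion genes. The calls were not equally firm. In the fits that left out 1 leukemia each, 9 of the 28 called genes kept their call in all 6, among them Cyth1, Flna, Fut4, Hyal2, Nedd9, Rap1a, Rap1gds1 and Rasgrp2, and 19 lost it in at least 1. With a granulocyte term, 20 of the 28 were still called, and those not called were Tpst1 (adjusted p = 0.0505), Itgam (0.0515), Itgb2 (0.0587), Cd2 (0.0592), Fyb (0.0649), Tln2 (0.0973), Rap1gap2 (0.121) and Esrp2 (0.139). The split of calls moved with the scaling, from these 8 higher and 20 lower to 9 and 14 with median-of-ratios scaling, 8 and 15 with quantile normalization and 3 and 27 with values rescaled to a fixed sum.

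Of the other integrin chains, 7 of 21 were tested, 3 were lower, 0 were higher and the median was -0.31. That is 42.9% called, against 13.6% of all tested genes, whose median was -0.05. Itga9, a chain that pairs with beta 1, averaged 36.6 ± 22.5 FPKM in DEX and 56.9 ± 36.4 FPKM in VEH (-0.57 ± 0.15, adjusted p = 0.0342). Itgam, the alpha M chain that marks granulocytes and macrophages, averaged 5.23 ± 2.88 FPKM in DEX and 8.19 ± 4.12 FPKM in VEH (-0.58 ± 0.16, adjusted p = 0.0450). None of the 3 calls, Itgb2 included, held in every fit without 1 leukemia: that of Itga9 was lost without leukemia 1, 3, 4 or 5 (adjusted p up to 0.0989) and that of Itgam without leukemia 1, 2, 4, 5 or 6 (up to 0.107). With a granulocyte term Itga9 was at -0.74 (adjusted p = 0.0136) and Itgam at -0.35 (adjusted p = 0.0515). Itgb2l, related in sequence to Itgb2, was at -0.42 ± 0.18 and did not pass (adjusted p = 0.153).

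Among the other selectin ligands, Spn, the sialoglycoprotein CD43, was at -0.27 ± 0.06 (limma, adjusted p = 0.0192), a call lost without leukemia 1, 4 or 5 (up to 0.0660). Glg1, an E-selectin ligand, was at -0.03 ± 0.07 and did not pass.

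Of the enzymes that build selectin ligand sugars, 11 of 20 were tested, 1 was higher and 2 were lower. That is 27.3% called, against 13.6% of all tested genes. Fut4, a fucosyltransferase that adds the fucose selectins need, averaged 4.6 ± 2.06 FPKM in DEX and 1.85 ± 0.79 FPKM in VEH, the largest difference of the 107 genes in either direction (0.94 ± 0.13, limma, adjusted p = 0.00394), and was higher in 6 of 6 leukemias. St3gal4, a sialyltransferase of the same pathway, was at -0.42 ± 0.08 (adjusted p = 0.0152; lost without leukemia 1 or 5, up to 0.0602). Tpst1, which sulfates tyrosines such as those of PSGL-1, was at -0.36 ± 0.09 (adjusted p = 0.0264; lost without leukemia 1, 3, 4 or 5, up to 0.0847, and 0.0505 with a granulocyte term). The enzymes thus did not move one way, and Galnt1, which starts O-linked chains, was at -0.28 ± 0.11 and did not pass.

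Of the integrin ligands on other cells and in matrix, 7 of 15 were tested and 1 was lower. That is 14.3% called, near the 13.6% of all tested genes. Icam2, a further LFA-1 ligand, averaged 23.8 ± 6.19 FPKM in DEX and 32.4 ± 8.06 FPKM in VEH (-0.43 ± 0.09, limma, adjusted p = 0.0139) and was lower in 6 of 6 leukemias, though not called without leukemia 5 (adjusted p = 0.0542). The E-cadherin gene Cdh1 (-0.40 ± 0.14), the osteopontin gene Spp1 (0.40 ± 0.23) and the fibronectin gene Fn1 (0.51 ± 0.29) did not pass.

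Of the genes that act on integrin activation from inside the cell, 26 of 29 were tested, 5 were lower, 5 were higher and the median was 0.02. That is 38.5% called, against 13.6% of all tested genes. The list mixes genes that promote and genes that oppose activation, so its counts and median give no net direction. Rasgrp2, an exchange factor that loads the small GTPase Rap1, averaged 37.7 ± 4.10 FPKM in DEX and 50.9 ± 4.74 FPKM in VEH (-0.43 ± 0.06, limma, adjusted p = 0.00473). Rap1a, a Rap1 gene, averaged 42.5 ± 2.48 FPKM in DEX and 57.2 ± 7.17 FPKM in VEH (-0.41 ± 0.07, adjusted p = 0.00864). Flna, the actin cross-linker filamin A that competes for integrin tails, averaged 85.8 ± 13.7 FPKM in DEX and 112 ± 16.8 FPKM in VEH (-0.39 ± 0.07, adjusted p = 0.00815). Cyth1, the cytohesin that binds the beta 2 tail, averaged 55.6 ± 9.42 FPKM in DEX and 40.6 ± 9.98 FPKM in VEH (0.46 ± 0.07, adjusted p = 0.00619). Each of these 4 moved one way in 6 of 6 leukemias and kept its call in all 6 fits without 1 leukemia.

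The other 6 called genes of that list, and Rap1b, are named after their values were seen. Rap1b, a further Rap1 gene with a higher level than Rap1a, averaged 100 FPKM in DEX and 83.3 FPKM in VEH. It did not pass (0.24 ± 0.10, limma, adjusted p = 0.132). Rap1gds1 (-0.48, adjusted p = 0.0139) and the adaptor gene Fyb (-0.65, adjusted p = 0.0259) fell. The Rap1-inactivating genes Sipa1 (0.51, adjusted p = 0.0163), Sipa1l1 (0.38, adjusted p = 0.0336) and Rap1gap2 (0.28, adjusted p = 0.0499) rose, as did the talin gene Tln2 (0.58, adjusted p = 0.0462). Apart from Rap1gds1 these were less firm: the calls were lost without leukemia 1, 2, 4 or 5 for Fyb (adjusted p up to 0.0674), without 1, 4 or 5 for Sipa1 (up to 0.0575), without 1, 3, 4 or 5 for Sipa1l1 (up to 0.101), without 1, 2, 4, 5 or 6 for Rap1gap2 (up to 0.146) and without 1, 2, 3, 5 or 6 for Tln2 (up to 0.124). With values rescaled to a fixed sum, Sipa1l1 (adjusted p = 0.190), Rap1gap2 (0.248) and Tln2 (0.0626) were not called, and with a granulocyte term Fyb (0.0649), Rap1gap2 (0.121) and Tln2 (0.0973) were not.

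Of the genes that signal from bound integrins, 23 of 27 were tested, 2 were lower and 0 were higher, a share of 8.70% against the 13.6% of all tested genes. Nedd9, a docking protein of integrin signals in lymphocytes, averaged 35.0 ± 17.4 FPKM in DEX and 46.1 ± 17.9 FPKM in VEH (-0.42 ± 0.07, limma, adjusted p = 0.00864). Vasp, which extends actin filaments at adhesion sites, was at -0.37 ± 0.08 (adjusted p = 0.0159; lost without leukemia 1 or 5, up to 0.0583). Paxillin (Pxn, 0.25 ± 0.08) and the kinase gene Fyn (-0.30 ± 0.09) did not pass at an adjusted p of 0.0639 each.

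Of the CD44 partners, hyaluronan genes and linkers to the cell cortex, 13 of 18 were tested, 2 were lower and 1 was higher. That is 23.1% called, against 13.6% of all tested genes. Hyal2, a hyaluronan-cutting enzyme, averaged 2.52 ± 0.61 FPKM in DEX and 4.94 ± 0.73 FPKM in VEH and was lower in 6 of 6 leukemias (-0.76 ± 0.09, limma, adjusted p = 0.00171). Slc9a3r1, a scaffold that binds the cortex linkers, was at -0.29 ± 0.06 (adjusted p = 0.0198; lost without leukemia 1 or 4, up to 0.0621). Esrp2, a splicing factor known to act on CD44 exons in epithelial cells, averaged 8.18 ± 4.90 FPKM in DEX and 5.17 ± 2.16 FPKM in VEH and just passed (0.51 ± 0.15, adjusted p = 0.0493). Its call was lost without leukemia 1, 2, 4, 5 or 6 (adjusted p up to 0.123), with a granulocyte term (0.139) and with values rescaled to a fixed sum (0.0749), and CD44 isoforms cannot be read from gene-level values.

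Of the other T-cell adhesion receptors, 17 of 21 were tested, 3 were lower and 1 was higher. That is 23.5% called, against 13.6% of all tested genes. The tetraspanin gene Cd82 averaged 167 ± 62.8 FPKM in DEX and 227 ± 47.6 FPKM in VEH (-0.49 ± 0.13, limma, adjusted p = 0.0348), while the tetraspanin gene Cd81 averaged 87.2 ± 12.5 FPKM in DEX and 65.4 ± 12.3 FPKM in VEH (0.42 ± 0.08, adjusted p = 0.0152). Pecam1 (-0.33 ± 0.09, adjusted p = 0.0370) and Cd2, the receptor that binds CD48 in mice (-0.33 ± 0.09, adjusted p = 0.0440), were lower. Calls were lost without leukemia 5 for Cd81 (adjusted p = 0.0520), without 1, 3, 4 or 5 for Cd82 (up to 0.107), without 1 to 5 for Pecam1 (up to 0.108) and without 2 to 6 for Cd2 (up to 0.114), which was also not called with a granulocyte term (0.0592). With values rescaled to a fixed sum Cd81 was not called (adjusted p = 0.0861).

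**Figure D5:**
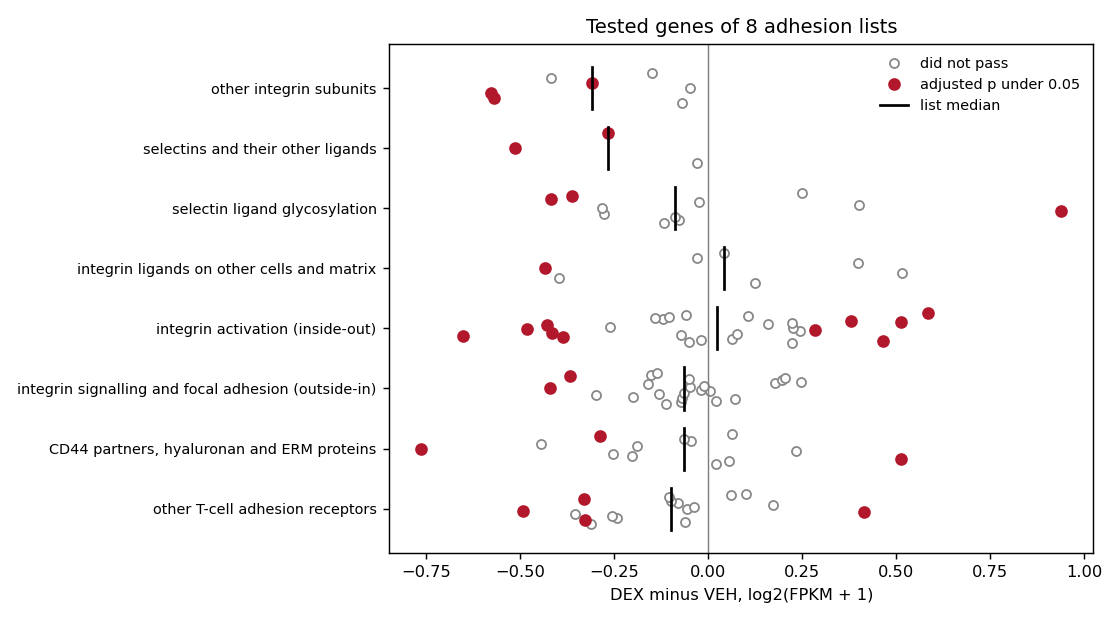
DEX minus VEH difference on the log2(FPKM + 1) scale for the 107 tested genes of 8 adhesion lists; filled points passed at an adjusted p under 0.05, open points did not, and the bar is the list median. The integrin activation list holds 5 genes on each side of 0 among the called genes, and Fut4 lies farthest right at 0.94.

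The genes most like each receptor were named by Pearson's r of log2(FPKM + 1) over the 12 libraries. These are the highest values among the 12358 tested genes after leaving out these receptors and ligands and predicted and clone models. The points share 6 leukemias, so r is a description. Itgb1 was most like Sec11c (0.95) and Yars (0.92), Itga4 like Fam241a (0.93) and Pde4b (0.93), Itga6 like Atp8a2 (0.92) and Fam167a (0.90), and Itgal like Cep135 (0.97) and Kat6b (0.96). Itgb7 was most like Tnnt1 (0.96) and Tuba1a (0.94), Selplg like Rapgef3 (0.91) and Tomm40l (0.89), Cd44 like Nup107 (0.97) and Cst3 (0.96), and Icam1 like Atg16l2 (0.96) and Usp37 (0.94). Among the 8 tested receptors and ligands, r between pairs lay between -0.66 (Itgb1 with Itgal) and 0.65 (Itgal with Cd44). These 8 could not be named as most like genes, having been left out of that search. The highest r between them lay below all the values listed above (0.89 to 0.97).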

How the data were processed

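Total RNA of marrow cells was sequenced as 100 bp paired reads from a stranded kit, per the labels' protocols. The authors deposited FPKM for 38339 gene identifiers, with 2 decimals and no counts. The submitters' processing notes name mm10, Bowtie2 (version 2), RSEM and edgeR without roles; the annotation and the use of strand in counting are not given in the sources used here. Positions came from GENCODE M21 (37693 identifiers matched).

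Genes with at least 1 FPKM in at least 6 of 12 libraries (12358) were tested on log2(FPKM + 1) with limma 3.58.1 (R 4.3.3; moderated with a trend; degrees of freedom 5 residual, 3.995 prior), with treatment and a leukemia block, two-sided, Benjamini-Hochberg adjusted over all tested genes, threshold 0.05. All adjusted p-values of genes are from limma. The leukemia terms were tested with the F test of that fit. Pairs come from the leukemia code in the titles: after removal of group means, the 2 libraries of a leukemia correlated across genes at 0.551 to 0.817, and those of different leukemias at up to 0.205. Partner ratios were tested with exact sign flips. Fits that left out a leukemia used a filter of 1 FPKM in 5 of 10 libraries. The 18 alternative settings include other pseudocounts, filters, scalings and a granulocyte marker term; fragment estimates assume fragments of 150 bp and gave no clear value for the VEH library of leukemia 2.

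Genes and lists were chosen with earlier results of these data known. Named genes were the 9 receptors and ligands, up to 4 tested genes of each list with the smallest p, 2 most like genes of each tested gene of these (leaving out predicted and clone models), Itgb2 and Fkbp5; other genes that the rule names are not reported here. On simulated data of 12204 genes, the fit called 42% of 50 genes changed by 0.5 log2 and 86% of 50 changed by 1, with 0 wrong signs and 12 unchanged genes called. The simulation changed a far smaller share of genes than the 13.6% called in the data, so these rates need not carry over.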

Additional observations from a re-analysis of the deposited data

Results flagged for a closer look

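Each receptor's 6 DEX values, 6 VEH values and 6 within-leukemia differences, and the 6 differences of each partner ratio, were searched for a value whose gap to its nearest neighbour took a larger share of the whole range than Dixon's 95% limit for 6 values. Of 32 such groups 4 had one. The limit is made for normally distributed values, while levels were searched as FPKM without a log scale. The groups also share genes and leukemias, so the count cannot be set against a rate of 1 in 20.

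On the FPKM scale, Itgae in leukemia 6 stood apart in both arms. It had 22.56 FPKM in DEX, where the other leukemias had 0.55 to 6.55 FPKM, and 18.71 FPKM in VEH, where the others had 0.30 to 5.66 FPKM. The Itgae difference of leukemia 2 was -0.54, while the other 5 lay between 0.01 and 0.26; its levels there were 0.86 FPKM in DEX and 1.71 FPKM in VEH.

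The Cd44 difference of leukemia 6 was -0.95, while the other 5 lay between 0.22 and 0.74. Leukemia 6 also had the lowest Cd44 level, 1.25 FPKM in DEX and 3.34 FPKM in VEH, and a granulocyte marker sum 0.399 times as high in DEX as in VEH. With a granulocyte term the mean Cd44 difference over the 6 leukemias was 0.45 (limma, adjusted p = 0.135).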

How the results depend on the processing

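Over all genes, 528 were higher and 1147 lower with DEX, 31.5% of calls higher. That share was 44.7% with median-of-ratios scaling (639 higher, 789 lower), 43.6% with quantile normalization (651 higher, 843 lower) and 12.1% when values were rescaled to a fixed sum (261 higher, 1889 lower). The last moved the median of all tested genes to -0.17, against -0.05 as deposited; relative to these medians Itgb1 was at -0.33 and -0.32, and Icam1 at -0.38 and -0.45. Testing all genes above 0 gave 181 higher and 370 lower, array weights 820 higher, and leaving out 1 leukemia 234 to 537 higher and 420 to 1035 lower. Without the replicate block 35 were higher and 46 lower, Itgb1 stayed at -0.37 (adjusted p = 0.439) and Icam1 at -0.50 (adjusted p = 0.359), and of the list genes 0 were higher and 1 lower.

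Itgb1 was called in all other settings (-0.39 to -0.34 on leaving out 1 leukemia). Icam1 was not called when all genes above 0 were tested (-0.50, adjusted p = 0.0620) and ranged from -0.56 to -0.44 on leaving out 1 leukemia; with a filter of 5 FPKM it was not tested. Cd44 ranged from 0.12 to 0.46 on leaving out 1 leukemia. Differences that did not pass changed sign: Itga4 was -0.076 on rescaling to a fixed sum and -0.0071 to 0.17 on leaving out 1 leukemia, Itga6 was -0.036 on that rescaling, Itgal was 0.00082 with array weights and -0.13 to 0.0015 on leaving out 1 leukemia, and Selplg was -0.16 to 0.033. Between leukemias, the Selplg range of 0.75 did not pass with all genes above 0 (adjusted p = 0.0709) and was 0.70 to 0.75 on leaving out 1 leukemia, and that of Icam1 was 0.70 to 0.93. Of the 8 higher and 20 lower list genes, testing all genes above 0 left 2 and 7, rescaling gave 3 and 27, and leaving out 1 leukemia gave 2 to 7 higher and 8 to 20 lower. The causes were not tested. The estimated depth limits Itgae below 2 FPKM most. It also limits Cd44 and Icam1 in leukemia 6, where Icam1 had fewer estimated fragments than Cd44 in both DEX and VEH.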
